A study of Mus musculus with 29 samples.

Results

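Acetylation of histone H3 at lysine 27 (H3K27ac) was compared between microglia of wild-type mice (WT) and of IRF8 knockout mice (KO). The mark was mapped by CUT&RUN, in which an antibody brings a nuclease to the marked chromatin and the DNA cut loose is sequenced. The comparison rests on 4 of the 29 samples of the series, of which 25 have a peak list. There were 2 libraries from animals labelled strain WT and 2 from animals labelled strain IRF8KO, all from female mice aged 3 months, with cells sorted by flow cytometry and the antibody Abcam ab4729. Neither label names a further allele, a background strain or an agent, and the labels do not say whether the libraries of a genotype came from separate animals, so spread between them may be technical. Per the labels the submitters provided 2 of 3 KO samples; the labels do not say how these were chosen, and the other was not analysed here. Other libraries of the series supply adult IRF8, PU.1 and H3K4me1 regions. Members were chosen as follows. Each chromosome, start and end was counted once, and regions of a genotype that shared at least 1 bp were merged. A merged region with a peak in both libraries was kept as a consensus region, which gave 36697 WT and 10555 KO consensus regions. A region was called absent from the other genotype when neither of its libraries listed a peak that touched it.

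H3K27ac marks active promoters and enhancers and is laid down by the acetyltransferases p300 and CBP. IRF8 is a transcription factor of the interferon regulatory factor family that is needed for the development and identity of microglia. It binds DNA mostly together with a partner, above all the ETS factor PU.1, at composite sites, and with other interferon regulatory factors at interferon response sites. SALL1, a zinc finger repressor, is a marker of microglia against other macrophages, and signals through TGF-beta receptors hold microglia in their resting state.

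Sequences of 200 bases around the highest adult IRF8 summit are given for regions at genes of the lists used here whose H3K27ac was absent from both KO libraries, beside regions present in all 4 libraries. They were picked, strongest regions first, among the windows that hold 1 of the 2 letter patterns described next, and so are examples of the pattern and not typical IRF8-bound DNA: either pattern was present in 4.79% of all IRF8 windows in absent regions and 6.02% in regions present in all 4 libraries. Bases are from the plus strand of GRCm38.p6 (mm10), and capitals mark a match to either of 2 letter patterns. The ETS-IRF composite pattern is GGAA, any 2 bases and GAAA, and the interferon response pattern is GAAA, any 2 bases and GAAA. Both strands were searched, so a match on the other strand starts with TTTC and ends with TTCC or TTTC, and the patterns can overlap each other. The first group was absent from both KO libraries. It holds a window upstream of Fcgr4 outside any gene, a window at the Cxcl10 promoter that also lies in an intron of Art3, a window in an intron of Entpd1 and a window near Klf6 in an intron of the predicted gene Gm47507.
Fcgr4, chr1:171018682-171018881: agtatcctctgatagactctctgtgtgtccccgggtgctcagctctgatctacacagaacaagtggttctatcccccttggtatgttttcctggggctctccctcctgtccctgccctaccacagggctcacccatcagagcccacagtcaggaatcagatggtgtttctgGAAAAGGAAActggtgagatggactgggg
Cxcl10 promoter, chr5:92349019-92349218: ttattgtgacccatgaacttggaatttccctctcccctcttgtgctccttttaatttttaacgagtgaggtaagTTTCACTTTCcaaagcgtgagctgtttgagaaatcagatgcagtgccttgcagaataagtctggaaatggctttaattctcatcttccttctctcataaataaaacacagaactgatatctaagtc
Entpd1, chr19:40684199-40684398: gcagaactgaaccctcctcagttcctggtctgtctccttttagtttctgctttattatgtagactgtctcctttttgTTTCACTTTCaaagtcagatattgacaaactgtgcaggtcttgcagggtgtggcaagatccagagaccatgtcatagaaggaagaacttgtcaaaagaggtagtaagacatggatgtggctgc
Klf6, chr13:5911458-5911657: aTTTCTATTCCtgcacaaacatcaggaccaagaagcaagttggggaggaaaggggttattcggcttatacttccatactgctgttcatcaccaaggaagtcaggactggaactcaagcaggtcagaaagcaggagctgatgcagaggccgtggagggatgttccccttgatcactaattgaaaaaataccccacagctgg

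The Entpd1 window lies 1195 bp outside the H3K27ac region itself, in the part of the IRF8 region that reaches beyond it. The Klf6 window overlaps its H3K27ac region, but the letters in capitals lie outside that region too. A window at Cd68 met the same rule and is not printed because 44 of its bases are annotated as untranslated. The next windows were in regions present in all 4 H3K27ac libraries: an intron of Adgrg1, an intron of Cd9, and a site 4.85 kb from the Cxcl10 start, again in an intron of Art3.
Adgrg1, chr8:94995439-94995638: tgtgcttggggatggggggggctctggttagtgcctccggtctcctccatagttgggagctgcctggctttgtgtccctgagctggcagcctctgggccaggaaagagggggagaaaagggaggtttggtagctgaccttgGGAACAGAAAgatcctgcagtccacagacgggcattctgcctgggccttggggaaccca
Cd9, chr6:125471616-125471815: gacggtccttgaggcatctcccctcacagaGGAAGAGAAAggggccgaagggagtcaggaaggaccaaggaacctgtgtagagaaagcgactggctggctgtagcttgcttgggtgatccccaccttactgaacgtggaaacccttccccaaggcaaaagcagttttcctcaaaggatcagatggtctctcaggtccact
Cxcl10 distal, chr5:92353552-92353751: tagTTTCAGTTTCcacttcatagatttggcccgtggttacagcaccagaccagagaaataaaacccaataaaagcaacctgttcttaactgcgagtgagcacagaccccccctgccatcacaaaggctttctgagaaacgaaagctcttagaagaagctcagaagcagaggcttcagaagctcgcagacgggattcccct

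The last window is the IRF8 summit in the Sall1 region chr8:89110436-89111781, which lies outside any gene 66.9 kb from the Sall1 start and also overlaps a WT PU.1 region. It was chosen after its values were seen and holds neither pattern.
Sall1, chr8:89110779-89110978: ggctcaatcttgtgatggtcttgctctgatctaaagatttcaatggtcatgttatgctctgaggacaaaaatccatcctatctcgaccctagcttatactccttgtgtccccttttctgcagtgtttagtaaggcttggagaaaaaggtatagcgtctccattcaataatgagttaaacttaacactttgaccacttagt

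The letter patterns were rare on both sides. The composite pattern occurred in 2.43% of the 2713 IRF8 windows in regions absent from both KO libraries (95% interval 1.89 to 3.08) and in 3.18% of 4963 windows in regions present in all 4 (2.71 to 3.71). In windows of the same length 1 kb away the shares were 2.10% and 1.87%, and around the starts of 21829 protein-coding genes 1.47%. For the interferon response pattern the shares were 2.40% and 3.04%, with 2.84% and 3.30% at 1 kb and 1.91% around starts. A match describes letters in the window and is not a site. For each pattern taken alone the shares on either side of the comparison lay within 1 percentage point of each other, and the Cxcl10 locus carried the interferon response pattern both at its absent promoter region and at its kept distal region.

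The 4 peak lists differed before any gene was considered. WT replicates 1 and 2 and KO replicates 1 and 2 were called from 20.2, 15.4, 14.7 and 8.57 M (mega) fragments, and listed 72354, 72875, 88400 and 31524 unique regions. KO replicate 1 therefore listed more regions than either WT library, and KO replicate 2 fewer than any. The regions were narrower in KO, with median widths of 769 and 678 bp in WT against 526 and 376 bp in KO, and they covered 87.6 and 76.9 Mb against 65.6 and 17.0 Mb. The KO libraries also agreed poorly with each other. Of KO replicate 2 regions, 64.3% had no overlap in KO replicate 1, while 59.5% had none in WT replicate 1 and 62.4% none in WT replicate 2. In the strongest of 5 equal classes of KO replicate 2 the share without overlap in KO replicate 1 was 46.9%, against 6.05% for the strongest class of WT replicate 1 in WT replicate 2. KO replicate 2 also listed 155 regions on chromosome Y, 154 of them beyond the first 4 Mb, against 1, 5 and 6 in the other libraries, all labelled female. The shares absent for all regions, by position, by strength and by gene list are therefore given also against KO replicate 1 alone.

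**Figure D1:**
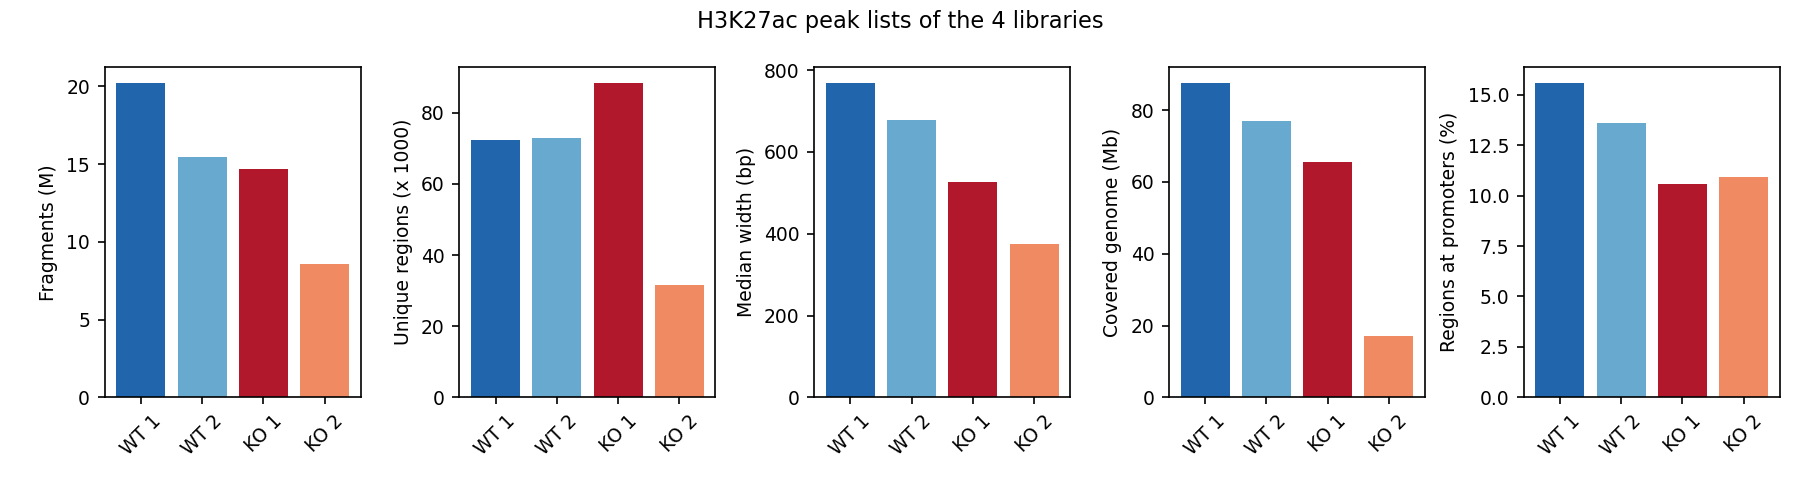
Bars show, for each of the 4 libraries, the fragments behind the peak calls in M, the unique regions in units of 1000, the median region width in bp, the covered genome in Mb and the percentage of regions at promoters. KO replicate 1 lists the most regions (88400) but covers less of the genome than either WT library, and KO replicate 2 is the lowest in fragments, regions, width and coverage.

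The mean number of regions was lower in KO by 0.46 on the log2 scale (exact permutation test over libraries, two-sided, p = 1), and without KO replicate 2 it was higher in KO by 0.28. The share of regions at promoters, within 1 kb of a protein-coding start, was 15.6% and 13.6% in WT and 10.6% and 10.9% in KO. The groups did not overlap, and the mean difference of -3.87 percentage points gave an exact permutation p of 0.333, the smallest that 2 against 2 libraries allow. It was between -2.87 and -4.86 points when any single library was left out. Among consensus regions the promoter share was close between genotypes, at 22.5% of 36697 in WT and 21.7% of 10555 in KO.

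The knocked-out gene came first. H3K27ac cannot check the knockout, since the labels do not say which part of Irf8 was deleted. Irf8 (chr8:120736358-120756694, plus strand) had 6 WT consensus regions, and none of them was absent from KO replicate 1. When at least 50% of a region had to overlap, 4 of the 6 were absent from both KO libraries, where all WT regions gave 71.2%. Regions with Irf8 as the nearest start covered 10.4 and 11.3 kb in WT and 7.22 and 2.27 kb in KO. Each WT library listed a region within 1 kb of an Irf8 start, neither KO library did, and the WT regions there did not overlap each other.

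Of the 36697 WT consensus regions 12491, or 34.0%, were absent from both KO libraries (exact binomial 95% interval 33.6 to 34.5), and 37.3% were absent from KO replicate 1. Intervals on shares cover the number of regions counted, not the spread between animals. The share differed by position. It was 21.7% of the 8260 promoter regions (20.9 to 22.6) against 37.6% of the 28437 distal ones (37.0 to 38.2). Against KO replicate 1 alone the shares were 25.2% and 40.9%, in the same order. The WT libraries differed from each other in the same way. Of WT replicate 1 regions 26.6% at promoters and 49.4% at distal positions had no overlap in WT replicate 2, and of WT replicate 2 regions 15.3% and 49.0% had none in WT replicate 1. The lower share at promoters is thus not particular to the comparison of genotypes. Distal regions inside genes (36.2%) and between genes (39.5%) differed less from each other than either did from promoters. By distance of the region centre to the nearest start the share was 22.5% up to 1 kb, 34.2% from 1 to 10 kb, 35.1% from 10 to 50 kb, 36.0% from 50 to 100 kb and 43.8% beyond. Against KO replicate 1 alone it was 26.1%, 37.7%, 38.6%, 38.7% and 46.6%.

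Absence also followed peak strength, taken from the authors' −log10 q as a percentile within each WT list and averaged over both. From the weakest to the strongest of 5 equal classes, 58.9%, 46.5%, 34.4%, 21.3% and 9.24% of WT consensus regions were absent from both KO libraries. Against KO replicate 1 alone the share ran from 62.4% in the weakest class to 10.6% in the strongest. The trend was also there within WT: of the weakest and strongest classes of WT replicate 1, 75.3% and 6.05% had no overlap in WT replicate 2, and in the reverse direction 73.1% and 4.99%. Promoters were lower than distal regions in each class, from 51.4% against 59.9% in the weakest to 4.03% against 11.4% in the strongest. Absent regions were narrower, with a median of 1194 bp against 2034.5 bp for those with a KO peak. Where KO replicate 1 did list a peak, it covered less of the region: 45.3% of the bases of these 22992 regions, against 84.4% and 74.4% in the WT libraries. The regions are merged WT peaks, so higher coverage in WT follows from how they were made. Between single lists, KO replicate 1 covered 32.2% of the bases of WT replicate 1 and 31.6% of those of WT replicate 2, and these covered 43.0% and 37.1% of the bases of KO replicate 1. The WT lists covered 51.7% and 58.9% of each other. Within the 22992 regions, promoters (48.3% of bases covered) differed little from distal regions (44.2%). KO replicate 1 and WT replicate 2 were called from similar numbers of fragments, 14.7 and 15.4 M, with median widths of 526 and 678 bp.

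**Figure D2:**
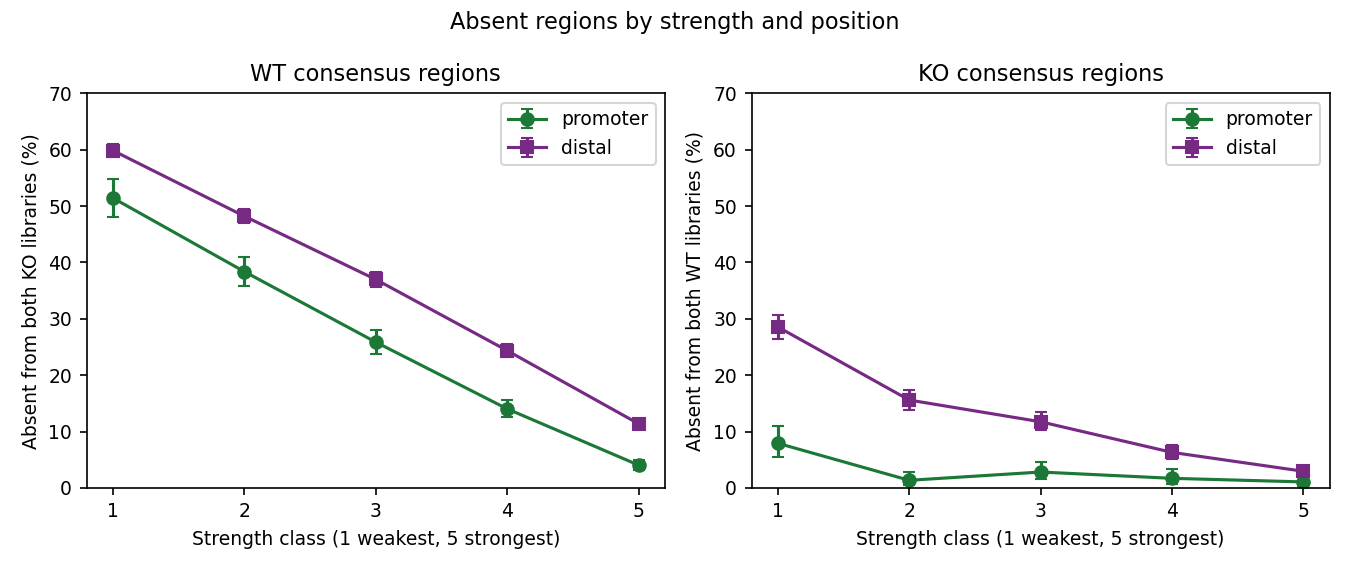
Points give the percentage of consensus regions absent from both libraries of the other genotype, by strength class on the x axis and by position, with exact binomial 95% intervals. On the left, WT regions fall from 59.9% (distal) and 51.4% (promoter) in the weakest class to 11.4% and 4.03% in the strongest. On the right, KO promoter regions stay at or below 7.91% in all 5 classes.

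The reverse class was small and almost wholly distal. Of the 10555 KO consensus regions 1154, or 10.9% (10.3 to 11.5), had no peak in either WT library. At promoters it was 2.79% of 2291 regions and at distal positions 13.2% of 8264, so 64 of the 1154 KO-only regions, or 5.55%, lay at promoters. KO-only regions had a median width of 909.5 bp against 1526 bp for KO regions with a WT peak. Without KO replicate 2 the class is far larger, since 55.9% of the 88400 regions of KO replicate 1 had no WT overlap.

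Counted by gene, 8390 protein-coding genes had a region within 1 kb of a start in both WT libraries, and 1679 of them, 20.0%, had none in either KO library. Against KO replicate 1 alone it was 1971, or 23.5%. In the other direction 2726 genes had promoter H3K27ac in both KO libraries, and 63 of them, 2.31%, had none in either WT library. Among these 63, chosen for mention after their values were seen, were the chemokine receptor gene Ccr1, the nucleic acid sensor gene Tlr8, the C-type lectin receptor genes Clec4d and Clec12a, the interferon-inducible genes Ifi47 and Ifi206, and the neighbouring signal-regulatory protein genes Sirpb1a, Sirpb1b and Sirpb1c.

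Regions were next assigned to the protein-coding gene with the nearest start, up to 100 kb from the region centre. Over all genes 32.2% of 30922 assigned WT regions were absent from both KO libraries and 35.6% from KO replicate 1, and each of the 12 gene lists is read against these shares. To compare libraries of unequal depth, the bases covered at a gene or list are also given as a share of all bases the library covered at genes. Of 10512 genes with a consensus region, this share was lower in both KO libraries than in both WT libraries for 3251 genes, 30.9%, and higher for 1857, 17.7%. For KO replicate 1 alone, 44.7% lay below both WT libraries and 34.8% above both. Genes outside the naming rule of the methods were chosen for mention after their values were seen.

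Sall1 stood at the extreme of the lineage and identity transcription factors. All 11 of its WT consensus regions, promoter included, were absent from both KO libraries. Regions assigned to Sall1 (on chromosome 8) covered 22.3 and 24.2 kb in WT, 0.593 kb in KO replicate 1 and none in KO replicate 2. The groups are far apart, and the 2 small regions of KO replicate 1 touched none of the 11. The WT regions were of ordinary strength, at percentiles 22.6 to 87.4 with a median of 63.0. IRF8 consensus regions overlapped 5 of the 11, and WT PU.1 the one at chr8:89110436-89111781, which the authors list at 7.71-fold and 8.18-fold over control. In bulk chromatin, fewer cells that carry the mark and less mark per cell cannot be told apart.

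**Figure D3:**
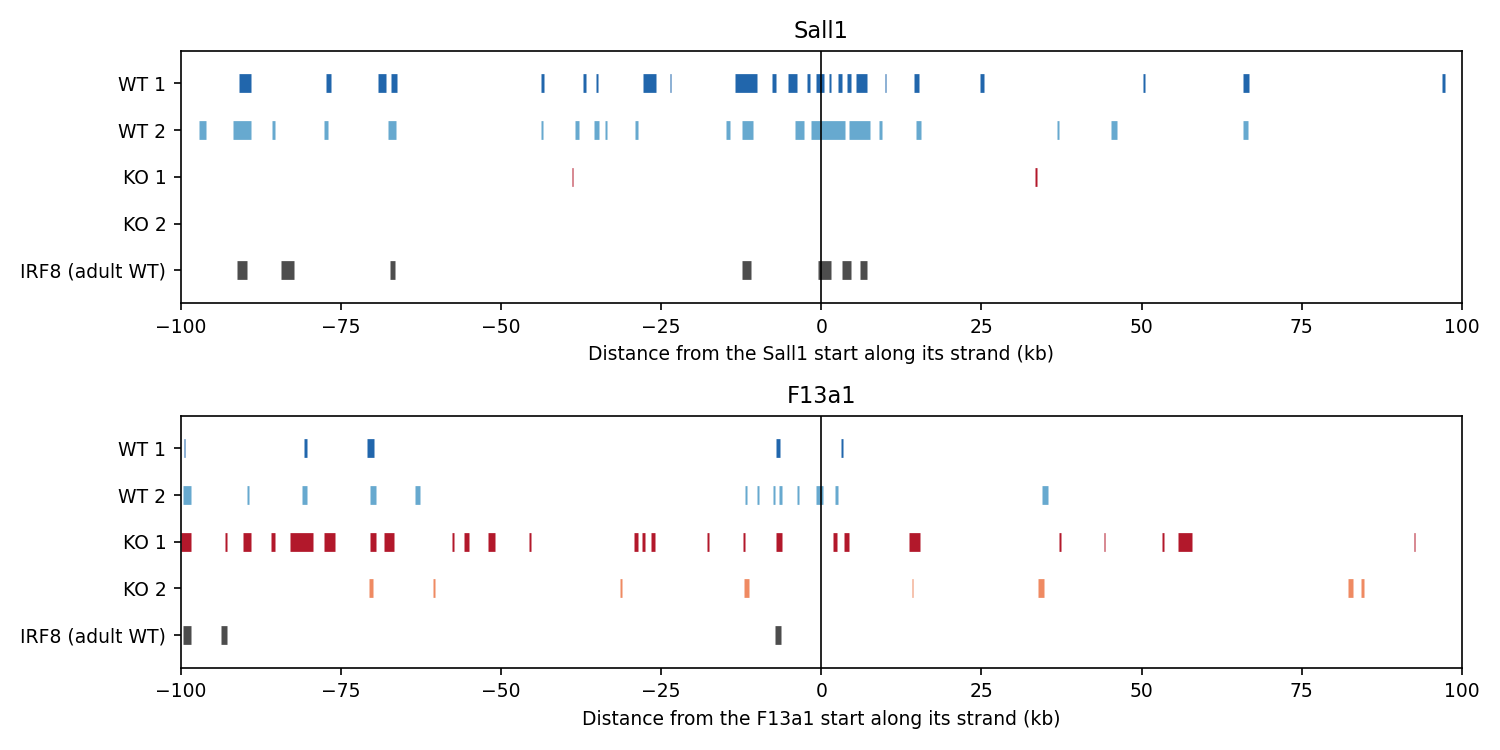
Bars mark listed H3K27ac regions of the 4 libraries and adult IRF8 consensus regions within 100 kb of the Sall1 (top) and F13a1 (bottom) starts, by distance along the gene's strand in kb. Around Sall1 the WT libraries list 24 and 20 regions and the KO libraries 2 and 0. Around F13a1 the WT libraries list 5 and 13 and the KO libraries 26 and 8.

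Sall1 was the only gene of the list with every WT region absent. Over the 22 genes, Sall1 included, 74 of 216 WT regions were absent, 34.3%, and 37.0% against KO replicate 1. As a share of covered bases the list took 0.864% and 0.834% in WT and 0.738% and 0.746% in KO. By gene 10 of 22 were lower in both KO libraries and 1 higher, where all genes gave 30.9% and 17.7%. Bhlhe41, a basic helix-loop-helix repressor, and Egr1, an immediate early factor, each had 3 of 5 absent; with peaks of −log10 q of at least 5 only, or by gene body with 10 kb on each side, Egr1 had 1 of 3. Spi1, which encodes PU.1, had all 3 regions in KO replicate 1, and 1 of 3 absent from both KO libraries at that threshold and 2 of 3 with at least 50% overlap required; its regions covered 12.4 and 16.1 kb in WT and 6.38 and 1.42 kb in KO. Mef2c, a MADS-box factor of microglia, had 6 of 26 absent and 1 KO-only region, and Rel, an NF-kappaB subunit, had 4 of 8 absent and also 1 KO-only region. At promoters 4 of the 18 list genes with H3K27ac in both WT libraries had none in either KO library, among them Irf8, Sall1 and the shear-stress factor gene Klf2; over all genes that share was 20.0%.

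Homeostatic microglia genes had a share of absent regions near that of all genes. Of 100 WT regions at 21 genes 27 were absent from both KO libraries (27%) and 35 from KO replicate 1 (35%), where all genes gave 32.2% and 35.6%. Mertk, a phagocytic receptor kinase gene, had none of 4 absent, and Ltc4s, the leukotriene C4 synthase gene, none of 4; with at least 50% overlap required, each had 3 of 4 absent. The purinergic receptor gene P2ry12 had 2 of 8 absent, with 40.1 and 40.7 kb covered in WT and 25.9 and 8.94 kb in KO. At promoters 2 of the 20 list genes with H3K27ac in both WT libraries had none in either KO library, and 4 of 20 had none in KO replicate 1, where all genes gave 20.0% and 23.5%. The fractalkine receptor gene Cx3cr1 had a single WT consensus region. Single libraries listed 3 and 4 regions at the gene in WT (2.37 and 3.52 kb) and 3 and 1 in KO (1.73 and 0.718 kb). The consensus region, chr9:120067250-120069343, overlapped IRF8 and PU.1 regions, was listed by the authors at 6.17-fold and 7.85-fold over control, and was in neither KO list. The other, the fructose transporter gene Slc2a5, had 1 of 2 regions absent from both KO libraries, at its promoter, 2 of 2 absent from KO replicate 1, and 1 KO-only region. As a share of covered bases no gene of this list was higher in both KO libraries than in both WT, and 7 of 21 were lower; for all genes that was 17.7% and 30.9%. In KO replicate 1 alone 17 of the 21 lay below both WT libraries and none above, where all genes gave 44.7% and 34.8%. The list as a whole took 0.391% and 0.471% of covered bases in WT and 0.320% and 0.453% in KO, so KO replicate 1 lay below both WT libraries and KO replicate 2 between them.

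At TGF-beta pathway genes, 41 of 136 WT regions (30.1%) were absent from both KO libraries and 35.3% from KO replicate 1. The effector gene Smad3 had 10 of 23 absent and the receptor gene Tgfbr2 9 of 25, while Itgav, the integrin alpha V subunit gene, had none of 9. It had 1 of 8 absent at a −log10 q of at least 5 and 4 of 9 with at least 50% overlap required. Tgif1, a corepressor gene, had 2 of 8 absent and 2 KO-only regions. As a share of covered bases 8 of the 13 genes were lower in both KO libraries and Tgif1 was higher, where all genes gave 30.9% and 17.7%. The list took 0.472% and 0.501% in WT against 0.340% and 0.396% in KO, and the genotypes did not overlap.

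Lists of the interferon system lay on both sides of the share of all genes, and the differences were not tested. At the other interferon regulatory factor genes 6 of 46 WT regions (13.0%) were absent from both KO libraries and 17.4% from KO replicate 1. Irf2 held 22 of the 46, with 2 absent, and Irf2bp2, the gene of an IRF2 corepressor, had 1 of 8 absent and 1 KO-only region. Type I interferon-stimulated genes had 8 of 33 absent (24.2%) and 30.3% against KO replicate 1. As a share of covered bases they took 0.0926% and 0.0998% in WT and 0.119% and 0.106% in KO, higher in both KO libraries. By gene 5 of 16 were lower in both KO libraries and 1 higher, where all genes gave 30.9% and 17.7%. In KO replicate 1 alone 7 genes lay below both WT libraries and 7 above, where all genes gave 44.7% and 34.8%. Antigen presentation genes had few regions, 15 in all, of which 6 (40.0%) were absent, also against KO replicate 1. Cd74, the invariant chain gene, went from 7.98 and 6.41 kb in WT to 0.260 and 0.703 kb in KO. Ciita, the class II transactivator gene, had its only WT consensus region kept and 1 KO-only region.

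**Figure D4:**
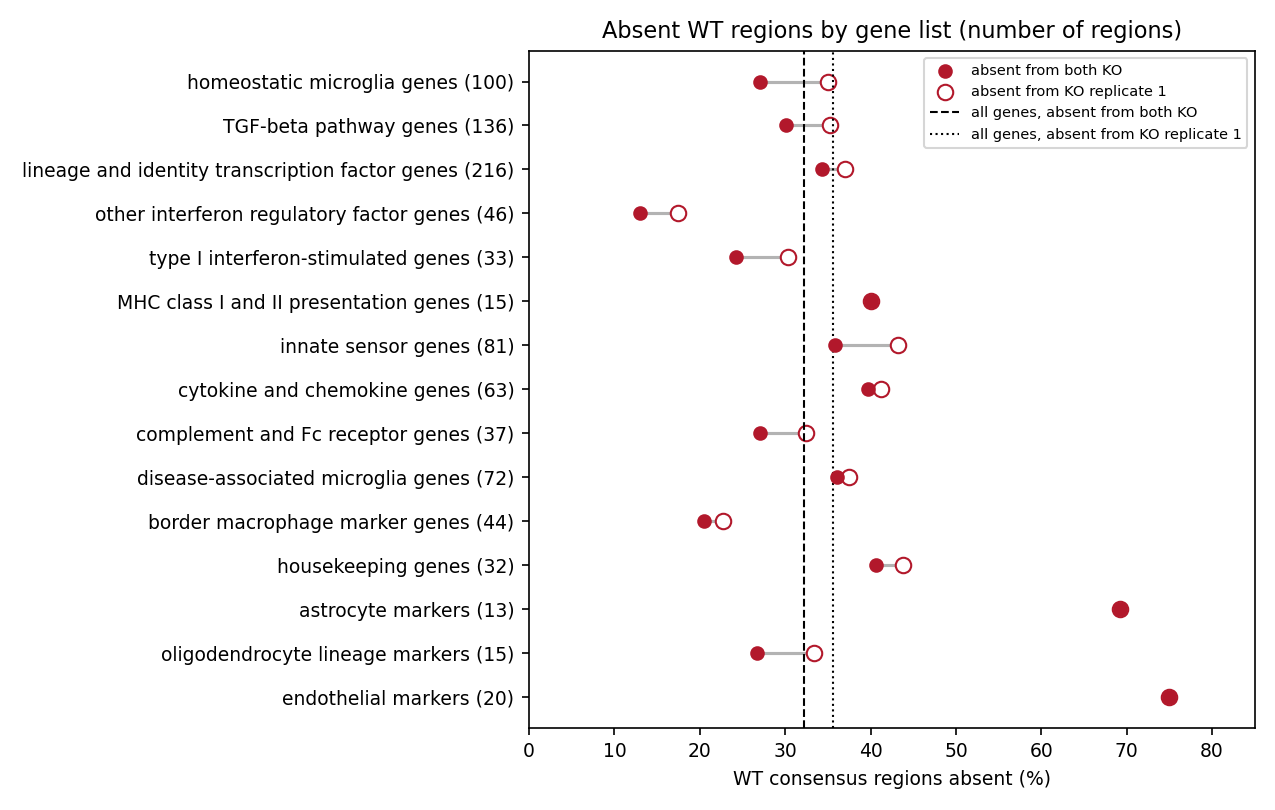
Filled points give the percentage of WT consensus regions absent from both KO libraries, open points that absent from KO replicate 1, for the 12 gene lists and 3 marker lists, with the number of regions in brackets. Lines mark all protein-coding genes at 32.2% and 35.6%. Most lists sit near the lines; other interferon regulatory factors (13.0%) and border macrophage markers (20.5%) sit below both, and endothelial (75.0%) and astrocyte (69.2%) markers far above.

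Innate sensors and cytokines were at or above the share of all genes. Of 81 WT regions at sensor genes 29 (35.8%) were absent from both KO libraries and 43.2% from KO replicate 1. As a share of covered bases the sensor list took 0.263% and 0.281% in WT and 0.179% and 0.258% in KO. By gene 9 of 20 were lower in both KO libraries and 1 higher, where all genes gave 30.9% and 17.7%. The endosomal RNA receptor gene Tlr3 had 5 of 7 absent, with 23.3 and 21.5 kb covered in WT and 6.16 and 2.23 kb in KO; by gene body with 10 kb on each side it had 2 of 4 absent. The inflammasome gene Nlrp3 had 3 of 4 absent, but at a −log10 q of at least 5 its single remaining region was present in KO. Naip2, Naip5 and Naip6, sensor genes for bacterial proteins, and the inflammasome adaptor gene Pycard had promoter H3K27ac in both WT and neither KO library. These were 4 of 19 list genes, where all genes gave 20.0%. The only WT consensus region assigned to Pycard was not absent, since it overlapped a peak of KO replicate 1. At Naip5 and Naip6 the only WT consensus region was absent. The 3 Naip genes are similar copies, so reads cannot always be assigned to one of them with certainty, and this was not measured. Tlr7, another endosomal RNA receptor gene, had none of 5 absent from both KO libraries and 1 KO-only region.

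At cytokine and chemokine genes 25 of 63 WT regions (39.7%) were absent from both KO libraries, and 41.3% from KO replicate 1. The interleukin gene Il6 had 6 of 8 absent, and covered bases went from 19.9 and 21.1 kb in WT to 2.00 and 0.535 kb in KO. Its promoter region, chr5:30010767-30015388, lay at the 94.9th percentile of the WT lists and was in neither KO list. Il12b, the shared subunit gene of interleukins 12 and 23, had 4 of 5 absent (11.5 and 10.5 kb in WT, 1.19 and 0.737 kb in KO). The chemokine genes Ccl12 and Cxcl10 each had 2 of 3 absent, and Cxcl10 shows both outcomes: the region with the printed promoter sequence was in neither KO list, and the one 4.85 kb away was in both. At a −log10 q of at least 5 Cxcl10 had none of 1 absent and Ccl12 1 of 2, and by gene body Ccl12 again had 1 of 2. As a share of covered bases the list took 0.178% and 0.221% in WT and 0.121% and 0.103% in KO, with 7 of 15 genes lower in both KO libraries and none higher, where all genes gave 30.9% and 17.7%.

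Complement and Fc receptor genes had 10 of 37 regions absent (27%), and 32.4% against KO replicate 1, with Fcgr2b, the inhibitory Fc receptor gene, at 2 of 3 (1 of 2 by gene body). Genes named for disease-associated microglia split. Over the list 26 of 72 regions (36.1%) were absent from both KO libraries and 37.5% from KO replicate 1. As a share of covered bases it took 0.274% and 0.260% in WT and 0.209% and 0.231% in KO. By gene 9 of 19 were lower in both KO libraries and 4 higher, where all genes gave 30.9% and 17.7%. Spp1, the osteopontin gene, had all 4 absent, with 5.18 and 4.87 kb covered in WT and 0.280 and 0.307 kb in KO. Lgals3, the galectin-3 gene, had 5 of 6 absent (8.58 and 10.4 kb against 0.470 kb and none), and Axl, a receptor kinase gene, 4 of 6 (1 of 2 at a −log10 q of at least 5). In contrast the cathepsin gene Ctsb and the ferritin heavy chain gene Fth1 had none of 3 absent and Ank, a pyrophosphate transporter gene, none of 7. With at least 50% overlap required Ctsb and Fth1 each had 1 of 3 absent and Ank 4 of 7. Peak strength differed too: the median WT percentile was 46.2 at Spp1, 50.2 at Axl and 75.2 at Lgals3. At Ctsb, Fth1 and Ank it was 96.4, 75.6 and 69.7. Gpnmb, a membrane glycoprotein gene, had no WT consensus region and 1 KO-only region. Housekeeping genes, the list chosen for broad expression, had 13 of 32 regions absent (40.6%) and 43.8% against KO replicate 1. At promoters 4 of the 11 with H3K27ac in both WT libraries had none in either KO library, where all genes gave 20.0%. The cytoskeletal actin gene Actb had 3 of 5 absent (1 of 2 by gene body), while Eef1a1, a translation elongation factor gene, had none of 6. At a −log10 q of at least 5 Eef1a1 had 1 of 5 absent.

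Border macrophage markers, genes typical of macrophages of the meninges and vessels, were the list with the most KO-only regions. Of their 40 KO consensus regions 8 (20.0%) had no WT peak, against 10.2% of 9215 regions over all genes. They lay at Cd163 (2), the haemoglobin scavenger receptor gene, at Ms4a7 (2), a membrane protein gene, and 1 each at Mrc1, the mannose receptor gene, F13a1, the coagulation factor XIII A gene, Cd38, the NAD glycohydrolase gene, and Ccr1. Regions at F13a1 covered 3.00 and 8.22 kb in WT and 23.5 and 4.60 kb in KO. At Cd163 it was 5.98 and 3.41 kb in WT and 15.8 and 2.21 kb in KO, and at Cd36, a fatty acid scavenger receptor gene, 9.08 and 8.14 kb against 24.1 and 5.15 kb. KO replicate 1 exceeded both WT libraries at these 3 genes, while KO replicate 2, with the fewest fragments, did so at none in absolute length. Relative to all bases covered at genes the list took 0.168% and 0.155% in WT and 0.316% and 0.424% in KO. By that measure 9 of its 13 genes were higher in both KO libraries than in both WT and none was lower, where all genes gave 17.7% and 30.9%. The 9 were Mrc1, Pf4, Cd163, Ms4a7, F13a1, Cd38, Ccr1, Dab2 and Cd36; the other 4, among them the hyaluronan receptor gene Lyve1, were not. Ccr1 held 17.4 of the 58.0 kb that KO replicate 2 covered at the list. In absolute length it had 24.7 and 17.1 kb in WT and 20.8 kb in KO replicate 1. Against KO replicate 1 alone, 88 of its 157 regions at the list (56.1%) had no WT overlap, against 52.7% of all its regions assigned to genes. Whether cells of that kind took a larger part of the KO samples was not tested.

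**Figure D5:**
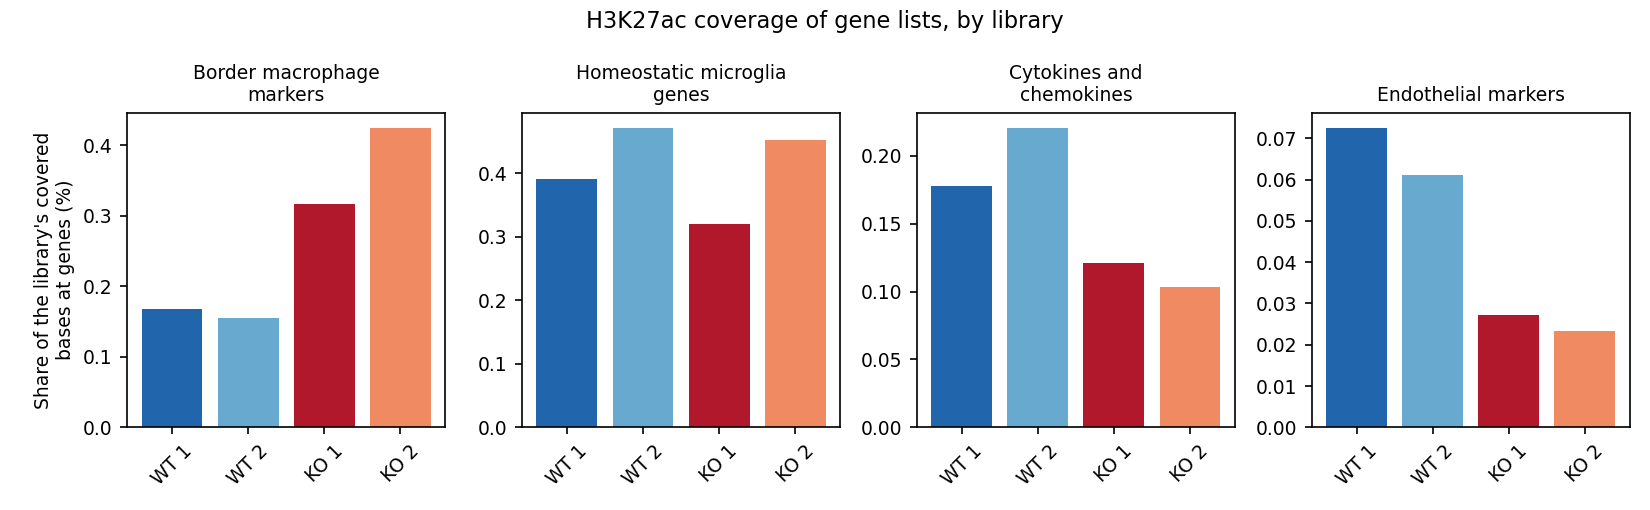
Bars give, for each library, the bases covered at the genes of a list as a percentage of all bases the library covered at genes. Border macrophage markers are at 0.168% and 0.155% in WT and 0.316% and 0.424% in KO, homeostatic genes overlap between genotypes, and cytokine genes and endothelial markers are lower in both KO libraries.

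Markers of other cell types did not move in 1 direction. Microglia and macrophage markers were listed at promoters in 9 of 10 genes in each WT library, and in 7 and 4 in KO. Among all protein-coding genes the promoter shares were 48.1% and 41.8% in WT and 38.6% and 15.6% in KO. Some of the labelled cell type's markers were thus listed at promoters in all 4 libraries, while Cx3cr1, Tmem119 and Aif1 were so in neither KO library. Over all genes 32.2% of WT regions were absent from both KO libraries and 35.6% from KO replicate 1. Regions of the microglia and macrophage markers were absent in 12 of 37 cases (32.4%), and Aif1, a cytoskeletal protein gene used to stain microglia, had both of its regions absent. Endothelial markers had 15 of 20 WT regions absent (75.0%, also against KO replicate 1), and their covered bases were 52.1 and 38.8 kb in WT and 14.6 and 3.18 kb in KO. The endothelial cadherin gene Cdh5 had all 5 regions absent, and Kdr, the VEGF receptor gene, 4 of 6. Pecam1 had 4 of 6 absent and Flt1 2 of 2, while the 1 region of Cldn5 was kept. Flt1 also had 1 KO-only region. As a share of covered bases 3 of the 5 genes were lower in both KO libraries and Flt1 was higher, where all genes gave 30.9% and 17.7%. Cdh5 and Kdr had a region within 1 kb of a start in both WT libraries and in neither KO library, as did 20.0% of all genes. At Cdh5 that was 1 of the absent regions. Astrocyte markers had 9 of 13 absent, of which 8 were at the glutamate transporter gene Slc1a2, and oligodendrocyte markers 4 of 15, with 0.0584% and 0.05004% of covered bases in WT and 0.0523% and 0.0575% in KO. The 5 endothelial genes took 0.0725% and 0.0610% of covered bases in WT and 0.0273% and 0.0232% in KO. Neuron markers took 0.00305% and 0.00817% in WT and 0.0188% and 0.0139% in KO, higher in both KO libraries, and 21 of the 23 regions of KO replicate 1 at them had no WT overlap, against 52.7% of all regions of KO replicate 1 assigned to genes. No neuron marker had a promoter region in any library, and the lymphocyte and the neutrophil and monocyte lists were at 0 to 2 of 6 genes. The part of such cells in the absent regions was not tested, and it may touch each count of absent regions above.

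Of the 8 strongest absent regions up to 10 kb wide, 7 were distal and 1 was the Cdh5 promoter (chr8:104106127-104112189), where 14.4% of all absent regions lay at promoters. All 8 overlapped an IRF8 consensus region, as did 60% of absent regions in the strongest class. The strongest, chr8:124766395-124768666, lies between genes 15.7 kb from Fam89a and was listed by the authors at 16.3-fold and 19.6-fold over control. The next, chr15:64446695-64449173, lies 65.0 kb from Asap1, the gene of an Arf GTPase-activating protein, at 14.8-fold and 22.6-fold, and overlaps PU.1. The Klrb1a region chr6:128630148-128630895, near a lectin-like receptor gene of lymphoid cells, was at 15.6-fold and 14.2-fold. Cdh5 is an endothelial gene, so the ranking holds at least 1 region of another cell type's marker.

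The genes with the most absent regions were large genes with many WT regions. Over all genes 32.2% of 30922 assigned WT regions were absent, and the shares at Asap1 (34.2%) and Nrip1 (38.9%) lay near that. Magi1, a junction scaffold gene, had 27 of 36 absent, with 113 and 73.8 kb covered in WT and 22.5 and 1.44 kb in KO. Ptprm, a receptor phosphatase gene, had 21 of 30 absent and Kcnma1, a calcium-activated potassium channel gene, 17 of 19. Smaller shares were absent at Rbfox1, a splicing factor gene (25 of 47), Frmd4a, a polarity scaffold gene (21 of 42), and Chd7, a chromatin remodeller gene (19 of 39). At the nuclear receptor corepressor gene Nrip1 it was 14 of 36, at the cytoskeletal guidance gene Nav2 14 of 33, at the zinc finger repressor gene Klf12 13 of 29 and at Asap1 13 of 38. Each of these counts moved by at most 2 regions against KO replicate 1 alone. By gene body with 10 kb on each side Nrip1 had 4 of 16 and Magi1 41 of 53 absent.

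No gene held more than 5 of the 937 KO-only regions assigned to genes, which are 10.2% of the assigned KO consensus regions. Fggy, a carbohydrate kinase gene, had 5 of its 12 KO consensus regions absent from both WT libraries, and Bhlhe40, a basic helix-loop-helix repressor gene, 5 of 6. Regions at Bhlhe40 covered 5.72 and 2.55 kb in WT and 22.2 and 3.55 kb in KO. Gnat3, a taste G protein subunit gene, had 5 of 6, and its regions covered 3.32 and 1.95 kb in WT and 23.2 and 5.37 kb in KO, so both KO libraries lay above both WT libraries. The same held at Trps1, a GATA-type repressor gene with 4 of 8 KO-only regions, at 4.64 and 2.50 kb in WT and 52.2 and 10.7 kb in KO. Gab3, an adaptor gene of the macrophage colony-stimulating factor receptor, had 4 of 4. The predicted gene Gm4791 had 4 of 8, the Arf exchange factor gene Cyth1 4 of 7, the vesicle release scaffold gene Rims2 4 of 5, the sphingomyelin synthase gene Sgms1 4 of 9 and Filip1l, which tied with other genes for the last place, 3 of 10. These counts need a peak in KO replicate 2. In KO replicate 1 alone, 20 of 24 regions at Bhlhe40, 18 of 21 at Gnat3, 52 of 58 at Trps1, 8 of 9 at Gab3, 49 of 73 at Fggy and 19 of 48 at Sgms1 had no WT overlap, against 52.7% of all its regions assigned to genes. Cd36, the next gene to Gnat3 on chromosome 5, is the scavenger receptor gene given above. Of the 8 strongest KO-only regions up to 10 kb wide, 2 were promoters, those of the adhesion adaptor gene Sorbs3 (chr14:70211045-70213452, listed at 11.4-fold and 12.9-fold) and Sirpb1a (chr3:15425819-15428896, at 10.4-fold and 9.10-fold), where 5.55% of all KO-only regions lay at promoters. None of the 8 overlapped an IRF8 region, and 0.780% of all KO-only regions did.

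Other marks at the same regions differed between the classes. Adult IRF8 consensus regions overlapped 21.7% of the WT regions absent from both KO libraries and 42.3% of those with a KO peak, and 0.780% of KO-only regions. Strength and width differ between these classes. Within strength classes the gap was smaller: in the strongest class IRF8 overlapped 60% of absent and 72.0% of kept regions. WT PU.1 consensus regions overlapped 5.07% of absent and 16.5% of kept regions. Where PU.1 was there in WT, it was missing from both KO PU.1 lists at 52.0% of 633 absent regions and 17.2% of 4001 kept regions, and in the strongest class at 74.2% of 151 and 15.6% of 2436. H3K4me1, the mark of primed and active enhancers, stayed at most of them. Of regions with H3K4me1 in both WT libraries, 88.7% of 8999 absent regions and 98.7% of 21610 kept regions had it in at least 1 KO library. At KO-only regions H3K4me1 was listed in WT at 46.2% and 42.4% and in KO at 65.6% and 70.1%. The IRF8, PU.1 and H3K4me1 libraries were not used to choose the regions, and these shares are descriptions with no test over libraries.

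By chromosome the share of WT regions absent from both KO libraries ran from 30.1% (chromosome 19) to 37.5% (chromosome 6) on the autosomes and was 42.1% of 724 regions on X. Against KO replicate 1 alone it was 33.0% to 40.9% on the autosomes and 47.5% on X. KO-only regions made up 20.0% of 125 KO regions on X, against 8.52% to 14.6% on the autosomes. Both shares were highest on X. All labels say female, but the share of KO-only regions rests on KO replicate 2, which listed 155 regions on Y.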

How the data were processed

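CUT&RUN peak lists of H3K27ac from 2 WT and 2 KO libraries were used, grouped by sample title. Per the submitters' processing notes the tools were bcl2fastq, Trim Galore, Bowtie2, deepTools and MACS2, on build mm10. Per the file headers, MACS2 2.2.6 called peaks on each library separately at a q-value of 0.01 with a maximum gap of 640 bp against 1 control of 18.5 M (mega) fragments shared by all 4 libraries. The deposited values per peak are the authors': the pileup signal, the −log10 p and q and the fold enrichment ratio over control. Within one list they were used for description, for ranks and as a threshold, and never between lists. Per the file headers, the authors called H3K4me1 as broad regions at a p-value of 0.01, and PU.1 replicate 2 of both genotypes at a q-value of 0.05. The authors' lists repeat a region once per summit, and each region was counted once here.

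Overlaps (at least 1 bp) were computed in Python 3.11.15 with numpy 2.4.6 and scipy 1.17.1 and tested on simulated lists. Genes came from GENCODE vM21 on GRCm38.p6, where no region lay beyond a chromosome end. An IRF8 consensus region had a peak in at least 2 of 3 adult libraries (16934 regions), and a PU.1 one in both WT libraries (5358 regions). Of 205 genes in 12 lists 204 matched, Clec7a being the other. The text names Irf8, list genes with at least 3 WT regions and at least 60% absent or none absent from KO replicate 1, list genes with a KO-only region, the 10 genes with most absent and most KO-only regions, and the 8 strongest regions of each class. Members and lists were chosen with earlier results of these data known. Single values were compared by exact permutation over libraries. Alternatives were replicate blocking, a −log10 q of at least 5, other overlap and promoter rules, equal list length and leaving out each library. Some genes that the rule names are not reported here.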

Additional observations from a re-analysis of the deposited data

How the results depend on the processing

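The data are limited to 2 libraries a genotype, 1 of them shallow, and to lists that hold no depth at regions below the threshold. Promoter regions had a lower share absent from both KO libraries than distal ones under every alternative run. For all WT consensus regions, KO replicate 1 alone, KO regions, promoter regions and distal regions in that order, the share absent was 71.2%, 72.6%, 19.8%, 62.4% and 73.7% when at least 50% of the region had to overlap. It was 27.2%, 30.7%, 8.57%, 17.9% and 30.0% when a peak within 1 kb counted, and 42.8%, 46.2%, 8.12%, 35.2% and 45.6% at a −log10 q of at least 5. With lists of equal length it was 35.2%, 44.7%, 13.5%, 28.1% and 37.9%. Against KO replicate 1 alone all, promoter and distal WT regions gave 37.3%, 25.2% and 40.9%, and against the KO consensus 78.4%, 72.7% and 80.1%. With promoters set by the region centre distal regions gave 36.7%. Leaving out 1 library at a time gave 37.3% to 72.9% for all WT regions, 57.4% to 62.2% against KO replicate 1, 14.1% to 55.9% for KO regions, 25.2% to 65.7% for promoters and 40.9% to 75.0% for distal regions; the highest values came without KO replicate 1, except for KO regions (without KO replicate 2) and KO replicate 1 (without WT replicate 1). The difference in log2 number of regions ran from -1.20 to 0.28 when a library was left out and reversed, to 0.28, without KO replicate 2. With the replicate block it was -0.46 (exact sign-flip p = 1) and for the promoter share -3.87 percentage points (p = 0.500, the smallest possible). Same-numbered WT and KO libraries did not deviate together (r = 0.04 over 165976 merged regions), and the labels give the numbers no shared source. Of the 40 genes named for absence, 40 stayed within 1.5 times their count against KO replicate 1 alone, 28 by gene body with 10 kb on each side, 20 with overlap of 50% of the region (the others higher) and 19 at a −log10 q of at least 5 (16 lower, 5 higher).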
